A study of Mus musculus with 60 samples.

Results

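Serotonin receptors are the cell surface proteins through which serotonin, released in the hippocampus by fibres from the raphe nuclei of the brainstem, acts on neurons and other cells. The set described here is 10 receptor genes (Htr1a, Htr1b, Htr1d, Htr2a, Htr2c, Htr3a, Htr4, Htr5a, Htr6 and Htr7), chosen by name from the 24508 gene rows of the deposited expression table, and all 10 were found there. The 4 other mouse serotonin receptor genes (Htr1f, Htr2b, Htr3b and Htr5b) are given beside them. Expression was measured by RNA-seq of whole hippocampus from 9 wild-type (WT) and 9 R6/1 mice, all 30 weeks old and of a mixed CBA and C57BL/6 strain background, with 50% of each. R6/1 mice, used to model Huntington's disease, express exon 1 of human huntingtin with an expanded CAG repeat from a transgene under the human huntingtin promoter. The deposited rows carry mouse gene symbols, so the transgene itself was not measured here. Lamin B1 ChIP-seq of the same tissue, made from pools of 5 mice per replicate, gave 1 list per genotype of the long chromatin domains that touch the nuclear lamina.

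Most serotonin receptors are G-protein-coupled receptors, and the G protein sets their effect. Receptors coupled to Gi/o (Htr1a, Htr1b, Htr1d and Htr5a) lower cyclic AMP and can open potassium channels. Those coupled to Gq (Htr2a and Htr2c) activate phospholipase C and raise calcium, and those coupled to Gs (Htr4, Htr6 and Htr7) raise cyclic AMP through adenylate cyclase. Htr3a is the exception, a subunit of a ligand-gated cation channel. In the hippocampus Htr1a is known as the inhibitory receptor of pyramidal and granule neurons, Htr3a as a gene of a class of interneurons, and Htr2c also as a gene of the choroid plexus, the epithelium that makes cerebrospinal fluid.

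In R6/1 hippocampus, 5 of the 9 receptors that could be tested fell, 1 rose and 3 did not pass the test. Htr2a and Htr1b fell most, Htr4, Htr1a and Htr6 fell less, and Htr5a rose. Levels are RPKM, reads per kilobase of gene scaled for depth. The test was limma on log2(RPKM + 0.5) over all 14446 genes whose mean reached 0.5 RPKM, with Benjamini-Hochberg adjusted p under 0.05 as the threshold. Across all those genes 23.5% were called lower and 24.8% higher, together 48.3%, and the median log2 fold change was 0.0036. The 6 calls among 9 receptors are read against that 48.3%, so that being called does not set these genes apart, and their median on the log2 scale was -0.33. The authors' deposited table called the same 6 members in the same directions, where it called 40.4% of its genes. Htr1d, with a mean under 0.5 RPKM, was the member left out of the limma test. In bulk tissue fewer cells of a type and less RNA per cell cannot be told apart.

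The libraries held between 12299434 and 16736544 reads on genes, recovered from the steps of the RPKM values. All 6 dentate granule, 6 CA1 and 8 CA2 and CA3 pyramidal markers passed this filter. Serotonin neurons have their cell bodies in the brainstem, and 2 of their defining genes were near 0: Slc6a4, the serotonin transporter, with WT and R6/1 means of 0.0533 and 0.0274 RPKM, and Fev with means of 0.00500 and 0.0720 RPKM. Tph2, another of their defining genes, was low but passed the filter, with means of 0.446 and 0.678 RPKM. Choroid plexus markers varied widely within both genotypes, from 84.8 to 1361 summed RPKM over 14 genes in WT and from 88.5 to 2098 in R6/1, with none of the 14 called between genotypes and none at 0 in any library.

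**Figure D1:**
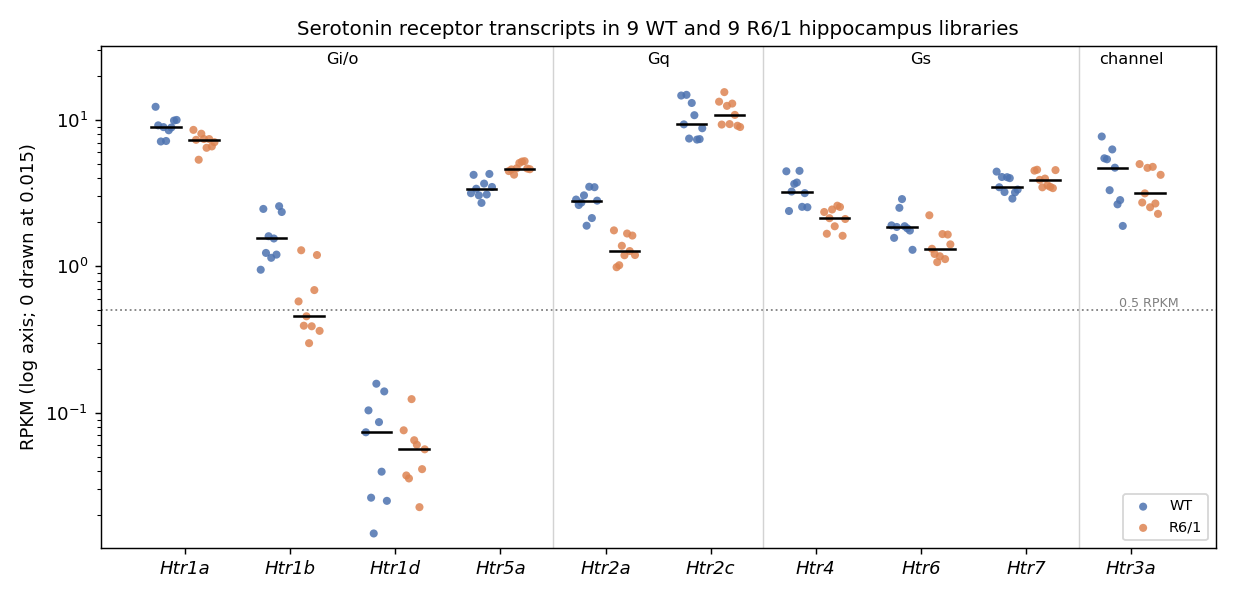
RPKM of each receptor gene (log axis) in every library, with WT in blue, R6/1 in orange and black bars at the medians of 9 libraries; the dotted line marks 0.5 RPKM. All 9 R6/1 points of Htr2a lie under all 9 WT points, 8 of 9 R6/1 points of Htr5a lie above all WT points, and Htr1d stays under 0.2 RPKM in every library.

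Receptor levels in WT were led by Htr2c, with a median of 9.32 RPKM, and Htr1a, with a median of 8.93 RPKM. A middle group followed, with Htr3a at 4.72 RPKM, Htr7 at 3.47 RPKM, Htr5a at 3.39 RPKM, Htr4 at 3.24 RPKM and Htr2a at 2.81 RPKM. Htr6 (1.86 RPKM) and Htr1b (1.55 RPKM) were lower, and Htr1d was at 0.0736 RPKM. Among all 14 receptor genes, neighbours in this WT order had overlapping ranges everywhere except between Htr1f and Htr2b. In R6/1 the order changed: Htr5a took rank 3 with a median of 4.66 RPKM, against rank 5 in WT, and Htr2a moved from rank 7 to rank 9 with a median of 1.27 RPKM. There Htr2c, Htr1a and Htr5a followed each other with no overlap between their ranges. RPKM rests on the gene length the authors used, and 1 RPKM stood for 17.2 normalized counts in Htr1b and 20.1 in Htr6 but 82.5 in Htr5a, so the first 2 rest on far fewer reads.

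For 4 members that the results below turn on, the sequence upstream of the RefSeq start (assembly GRCm38.p6, which is not the build of the data) is shown: Htr2a and Htr1b as the receptors that fell most, Htr5a as the one that rose, and Htr2c as the one whose WT lamina domain was absent from the R6/1 list. Each window runs from 250 to 51 bases before the start, 5′ to 3′ on the gene's strand, with CpG dinucleotides in capitals.
Htr2a (chr14:74640624-74640823, plus strand): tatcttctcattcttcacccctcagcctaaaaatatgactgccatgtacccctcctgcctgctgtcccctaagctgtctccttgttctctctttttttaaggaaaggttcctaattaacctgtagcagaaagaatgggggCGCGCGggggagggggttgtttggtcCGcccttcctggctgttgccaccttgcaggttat
Htr1b (chr9:81633883-81634082, minus strand): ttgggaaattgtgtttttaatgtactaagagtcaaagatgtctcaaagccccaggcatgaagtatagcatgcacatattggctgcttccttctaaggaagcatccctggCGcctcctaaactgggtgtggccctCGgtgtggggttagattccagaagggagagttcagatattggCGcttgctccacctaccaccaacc
Htr5a (chr5:27841697-27841896, plus strand): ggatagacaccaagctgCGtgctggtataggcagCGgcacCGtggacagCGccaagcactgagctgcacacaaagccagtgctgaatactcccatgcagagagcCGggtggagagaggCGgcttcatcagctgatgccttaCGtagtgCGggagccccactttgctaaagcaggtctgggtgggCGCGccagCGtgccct
Htr2c (chrX:146962263-146962462, plus strand): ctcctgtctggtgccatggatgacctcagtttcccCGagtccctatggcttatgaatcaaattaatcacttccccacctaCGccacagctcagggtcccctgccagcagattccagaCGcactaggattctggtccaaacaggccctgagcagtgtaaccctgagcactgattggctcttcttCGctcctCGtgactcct
The Htr5a window held 11 CpG dinucleotides at 61.5% GC, against 4 at 51.0% for Htr2a, 3 at 49.0% for Htr1b and 5 at 54.5% for Htr2c. The median over 32851 such windows was 4 CpG dinucleotides at 51.5% GC, and 26.7% of the windows held as many as Htr5a. The GC box GGGCGG, searched on both strands, was present in the Htr2a window only among these 4, and in 24.6% of all windows. These are letters in 1 window per gene and bear on no factor.

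Of the Gi/o-coupled receptors, Htr1a was the most abundant. Htr1a (chromosome 13, 106233773 to 106238213, plus strand; gene positions on build NCBIM37, GENCODE annotation) is the receptor through which serotonin hyperpolarizes hippocampal neurons. In WT its lowest, median and highest libraries were at 7.12, 8.93 and 12.3 RPKM, and in R6/1 at 5.35, 7.31 and 8.55 RPKM. The genotypes overlapped, yet all 9 R6/1 libraries lay under the WT median and 6 of 9 WT libraries lay above every R6/1 library. Its mean went from 9.11 ± 1.57 RPKM to 7.13 ± 0.934 RPKM (SD, n = 9), which on the log2 scale was -0.33 ± 0.091 (SE; adjusted p 0.00570 by limma).

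Htr1b encodes a receptor best known from axon terminals, where it limits transmitter release. Htr1b (chromosome 9, 81524950 to 81526222, minus strand) was at 0.948, 1.55 and 2.58 RPKM in the lowest, median and highest WT libraries, on 14 to 43 reads. In R6/1 it was at 0.299, 0.456 and 1.29 RPKM, on 5 to 25 reads. Here 7 of 9 R6/1 libraries fell below every WT library, and replicates 2 and 8 of R6/1 were the high ones. The mean fell from 1.68 ± 0.627 RPKM to 0.628 ± 0.368 RPKM (SD, n = 9), or -0.96 ± 0.18 on the log2 scale (SE; adjusted p 0.000207 by limma). With so few reads the size depended on the scale, at -1.35 with a pseudocount of 0.1, -0.71 with a pseudocount of 1 and -1.47 with voom on the recovered reads. A gene on the opposite strand, D430036J16Rik, overlaps Htr1b, and the sources used here do not say if reads were counted by strand.

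Htr5a, another Gi/o-coupled receptor, was the member that rose. Htr5a (chromosome 5, 28168487 to 28181626, plus strand) was at 2.71, 3.39 and 4.28 RPKM in the lowest, median and highest WT libraries and at 4.23, 4.66 and 5.23 RPKM in R6/1. Only R6/1 replicate 3 lay within the WT range, under WT replicate 8, and 8 of 9 WT libraries lay under every R6/1 library. The spread was also smaller, with a coefficient of variation of 7.23% in R6/1 and 15.3% in WT. The mean rose from 3.45 ± 0.529 RPKM to 4.75 ± 0.343 RPKM (SD, n = 9), which on the log2 scale was 0.42 ± 0.071 (SE; adjusted p 6.43e-05 by limma). Its share of the summed level of the 10 receptors went from 8.59% ± 1.72 in WT to 13.2% ± 1.63 in R6/1 (SD, n = 9).

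Htr1d (chromosome 4, 135979439 to 136000313, plus strand), a close relative of Htr1b, was close to undetected. It had at most 8 reads in any library, was at 0 in WT replicate 4, where a count of 0 allows up to 3 reads or 0.0582 RPKM, and its highest values were 0.158 RPKM for WT and 0.124 RPKM for R6/1. In a fit with no filter on low values, where 35.2% of genes were called in either direction, its log2 fold change was -0.03 (adjusted p 0.652 by limma).

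The Gq-coupled receptors behaved differently from each other. Htr2a, a receptor of cortical pyramidal neurons and interneurons and the target of serotonergic hallucinogens, showed the clearest separation of the set. Htr2a (chromosome 14, 75040647 to 75106666, plus strand) was at 1.90, 2.81 and 3.50 RPKM in the lowest, median and highest WT libraries, on 89 to 150 reads. In R6/1 it was at 0.987, 1.27 and 1.76 RPKM, on 49 to 86 reads. Every R6/1 library lay under every WT library, which held for 6.38% of all tested genes in that direction and for no other member. No member lay wholly above WT in R6/1, against 5.5% of genes, and genes without overlap in either direction made up 11.9%. The mean fell from 2.79 ± 0.536 RPKM to 1.34 ± 0.285 RPKM (SD, n = 9), so that the R6/1 mean was 0.483 of the WT mean. On the log2 scale the difference was -0.83 ± 0.11 (SE; adjusted p 2.46e-06 by limma).

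Htr2c (chromosome X, 143397056 to 143631820, plus strand) had the highest median of the members in both genotypes, though in WT its range overlapped that of Htr1a. It did not pass the test. It was at 7.34, 9.32 and 14.8 RPKM in the lowest, median and highest WT libraries and at 8.94, 10.8 and 15.5 RPKM in R6/1. The ranges overlapped, with 1 R6/1 library above all of WT and 4 WT libraries below all of R6/1. The log2 fold change was 0.14 with a 95% interval from -0.17 to 0.45 (adjusted p 0.452 by limma). Htr2c shares its strand and span with small RNA genes in its introns, among them Mir448, Mir764, Mir1298 and Snora35.

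The Htr2c level was read against the choroid plexus markers, library by library. WT replicate 3 had the highest mean of the 14 markers in WT, 3.26 on the log2(RPKM + 0.5) scale, and the highest WT level of Htr2c, and WT replicate 7 had the lowest of both, with a marker mean of 0.747 and Htr2c at 7.34 RPKM. In R6/1 the highest marker mean, 3.57, was again that of the library highest in Htr2c, replicate 3, but the lowest, 0.879 in replicate 7, went with the R6/1 median of Htr2c, 10.8 RPKM. Ttr, the choroid plexus gene for transthyretin, ranged from 19.0 to 1035 RPKM in WT and from 33.4 to 1696 RPKM in R6/1. In a limma fit with genotype and the marker mean together, Htr2c rose by 0.27 on the log2 scale per SD of the marker mean (95% interval 0.18 to 0.37, adjusted p 0.00251 by limma), where 1.07% of all tested genes had a slope past the threshold. The genotype difference of Htr2c in that fit was 0.10 (adjusted p 0.368 by limma). Among the other members tested none had a slope on the marker mean past the threshold, Htr3a included (0.28 per SD, adjusted p 0.151 by limma), and whether the slope of Htr2c differs from that of Htr3a was not tested. The 5 receptors that fell and the 1 that rose passed the genotype test in that fit too.

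**Figure D2:**
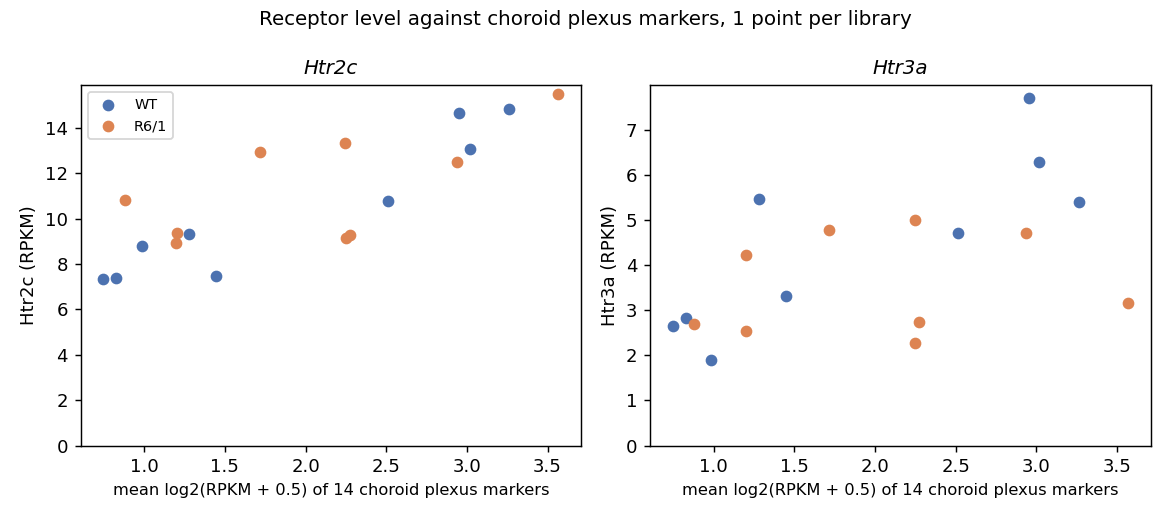
RPKM of Htr2c (left) and Htr3a (right) against the mean log2(RPKM + 0.5) of 14 choroid plexus markers, 1 point per library, with WT in blue and R6/1 in orange. The highest Htr2c point of each genotype, 14.8 RPKM in WT and 15.5 RPKM in R6/1, lies at its highest marker mean; the lowest marker mean goes with 7.34 RPKM in WT and 10.8 RPKM in R6/1.

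Of the Gs-coupled receptors, Htr4 and Htr6 fell and Htr7 did not pass the test. Htr4 (chromosome 18, 62483858 to 62627456, plus strand), known from pyramidal and granule neurons, was at 2.39, 3.24 and 4.49 RPKM in the lowest, median and highest WT libraries and at 1.62, 2.13 and 2.60 RPKM in R6/1. The ranges met, with 6 of 9 R6/1 libraries below all of WT and 6 of 9 WT libraries above all of R6/1. The mean fell from 3.36 ± 0.794 RPKM to 2.15 ± 0.366 RPKM (SD, n = 9), which on the log2 scale was -0.53 ± 0.11 (SE; adjusted p 0.000678 by limma).

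Htr6 (chromosome 4, 138617023 to 138631485, minus strand), a receptor expressed almost only in the brain and abundant in the striatum, was at 1.30, 1.86 and 2.88 RPKM in the lowest, median and highest WT libraries. In R6/1 it was at 1.07, 1.32 and 2.23 RPKM, on 21 to 50 reads. R6/1 replicate 1 was the 1 library above the WT median, and the ranges overlapped widely. The mean fell from 1.94 ± 0.477 RPKM to 1.43 ± 0.370 RPKM (SD, n = 9), or -0.34 ± 0.12 on the log2 scale (SE; adjusted p 0.0230 by limma). This was the weakest of the 6 calls. Scaling each library to its own total of reads, which moved the median of all genes to 0.07, left Htr6 at -0.28 with a adjusted p of 0.0523.

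Htr7 (chromosome 19, 36033224 to 36131997, minus strand), a receptor that raises excitability and is studied for its part in circadian timing, was at 2.90, 3.47 and 4.44 RPKM in the lowest, median and highest WT libraries. In R6/1 it was at 3.42, 3.90 and 4.57 RPKM. Its R6/1 libraries lay mostly in the upper part of the WT range, with 7 of 9 above the WT median. The log2 fold change was 0.10 with a 95% interval from -0.06 to 0.27 (adjusted p 0.285 by limma).

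Htr3a (chromosome 9, 48707319 to 48719204, minus strand), the channel subunit of interneurons, varied more between libraries of a genotype than between genotypes. It was at 1.89, 4.72 and 7.70 RPKM in the lowest, median and highest WT libraries and at 2.28, 3.15 and 4.99 RPKM in R6/1. The coefficient of variation was 43.0% in WT and 30.7% in R6/1, the widest of the members with a mean above 2 RPKM. The log2 fold change was -0.23 with a 95% interval from -0.68 to 0.21 (adjusted p 0.381 by limma). Its partner subunit Htr3b had at most 5 reads in any library.

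Added up by coupling, the receptors overlapped between genotypes in every class. The 4 Gi/o-coupled members summed to 14.3 ± 2.08 RPKM in WT against 12.6 ± 1.11 RPKM for R6/1, and the 3 Gs-coupled members to 8.93 ± 1.49 RPKM and 7.51 ± 0.733 RPKM (SD, n = 9). The Gq-coupled pair summed to 13.2 ± 3.01 RPKM and 12.6 ± 2.40 RPKM, since Htr2c outweighs Htr2a in that sum. Sums over chosen members are given as a description, with no test.

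**Figure D3:**
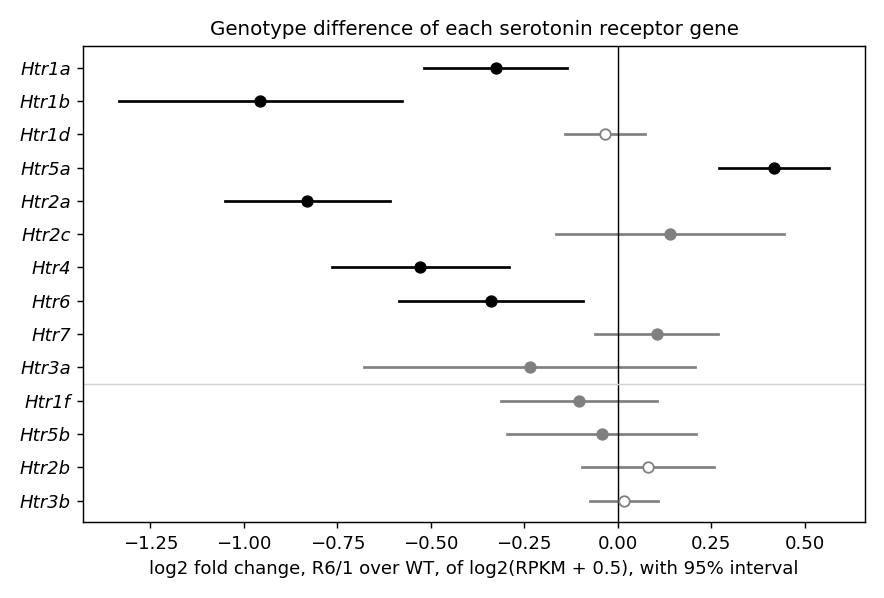
Log2 fold change of R6/1 over WT for the 10 members (above the line) and the 4 other receptor genes (below), with 95% intervals from limma on log2(RPKM + 0.5); black marks an adjusted p under 0.05, and open circles are genes under 0.5 RPKM, taken from the fit with no filter. Htr2a and Htr1b lie farthest to the left, at -0.83 and -0.96, and Htr5a is the 1 black point to the right of 0.

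The other receptor genes gave no call. Htr5b, a relative of Htr5a, had means of 2.39 ± 0.565 RPKM and 2.30 ± 0.511 RPKM for WT and R6/1 (SD, n = 9), and its log2 fold change was -0.04 with a 95% interval from -0.30 to 0.21 (adjusted p 0.799 by limma). Htr5a and Htr5b thus had intervals that did not overlap, though the difference between them was not tested. Htr1f had a log2 fold change of -0.10 (adjusted p 0.419 by limma), and Htr2b and Htr3b stayed under 0.5 RPKM in every library.

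The genes downstream of the receptors were read from lists by G protein, whose counts stand against 23.5% of all tested genes called lower and 24.8% called higher. On the Gq list (2 alpha subunits, phospholipase C, the IP3 receptor and protein kinase C), 6 of 9 tested genes fell and 1 rose, with a median log2 fold change of -0.29. The kinase genes Prkcb and Prkca fell by 0.68 and 0.62 on the log2 scale, and Plcb1, a phospholipase C gene, fell by 0.53. Each had no overlap between genotypes, with limma adjusted p from 1.98e-09 to 8.31e-06. The phospholipase C genes Plcb3 and Plcb4 did not pass (log2 fold changes -0.12 and 0.0053, limma adjusted p 0.273 and 0.979). On the Gs list, 4 of 12 genes fell and 2 rose, with a median of -0.04. Adcy1, a calcium-stimulated adenylate cyclase, went from 129 ± 23.7 RPKM to 55.1 ± 7.18 RPKM (SD, n = 9; log2 fold change -1.21, adjusted p 7.29e-09 by limma). Adcy9 and Adcy2 fell by 0.55 and 0.37, and Prkacb, a catalytic subunit of protein kinase A, rose by 0.38 on the log2 scale. On the Gi/o list, 3 of 8 genes fell and 4 rose, with a median of 0.06. The falls included Kcnj9 and Kcnj6, subunits of the potassium channel that Htr1a opens, by 0.31 and 0.30. Kcnj3, a more abundant subunit, did not pass (40.0 and 38.9 RPKM in WT and R6/1; log2 fold change -0.04, adjusted p 0.666 by limma). Gnai3 and Gnai2, alpha subunits of Gi, rose by 0.24 and 0.17. Gnao1, the alpha subunit of Go, fell from 90.7 to 80.7 RPKM (log2 fold change -0.17, adjusted p 0.000432 by limma).

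Receptor partners and RNA editing enzymes gave 4 lower and 2 higher of 14 genes, where 48.3% of all tested genes were called in either direction. Adarb1, which edits the Htr2c transcript among others, went from 35.7 ± 5.70 RPKM to 25.5 ± 1.45 RPKM (SD, n = 9; log2 fold change -0.47, adjusted p 9.40e-06 by limma). Adar, another editing enzyme of the list, went the other way, from 31.6 to 36.0 RPKM (log2 fold change 0.19, adjusted p 0.00402 by limma). Editing itself cannot be read from these values. Adarb2, a brain relative of Adarb1, fell by 0.59 and Cav1, the caveolin gene, by 0.53 on the log2 scale. Dlg4, the gene of the synaptic scaffold PSD-95 that binds Htr2a and Htr2c, fell by 0.51. S100a10, a partner of Htr1b and Htr4, had a log2 fold change of -0.18 that did not pass (adjusted p 0.154 by limma).

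On the list for serotonin synthesis, transport and breakdown, 3 of 5 tested genes rose and 0 fell. Of all tested genes, 24.8% were called higher and 23.5% lower. Ddc, the enzyme that makes serotonin and dopamine from their precursors, went from 2.63 ± 0.399 RPKM to 5.27 ± 1.23 RPKM (SD, n = 9) and every R6/1 library lay above every WT library (log2 fold change 0.87, adjusted p 1.79e-06 by limma). Tph2, the neuronal enzyme of the first step, was at 0.446 ± 0.135 RPKM and 0.678 ± 0.153 RPKM, a low level that differed by 0.32 on the log2 scale (adjusted p 0.0131 by limma). Maoa, which degrades serotonin, rose by 0.15 on the log2 scale.

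Markers of the cell types that carry these receptors moved with genotype as well. Their counts stand beside 23.5% of all tested genes called lower and 24.8% called higher. The lists were chosen with earlier results of these data known, so the counts are a description only. All 6 dentate granule markers fell, with a median log2 fold change of -1.42, and their summed level was 71.3 to 111 RPKM in WT and 42.3 to 53.6 RPKM in R6/1. The falls were uneven. Calb1 and Prox1 changed by -0.30 and -0.46 with overlap between genotypes, and Lct and Dsp by -2.12 and -2.37 with none. Of 8 CA2 and CA3 markers 6 fell (186 to 292 summed RPKM in WT, 95.6 to 129 in R6/1), and of 6 CA1 markers 4 fell and 1 rose (189 to 276 and 152 to 172). Inhibitory neuron markers fell for 9 of 11 genes, from 420 to 528 summed RPKM to 255 to 339. Neocortex markers fell for 4 of 6 genes, from 48.8 to 84.5 summed RPKM to 38.0 to 49.2, and striatal markers for 3 of 7, from 32.4 to 42.4 to 25.1 to 29.2. All 6 astrocyte markers fell too, from 840 to 1109 summed RPKM to 569 to 839. Of 6 markers each, 4 fell for oligodendrocytes, 3 for microglia and 1 for endothelial cells. Of 7 markers of the neighbouring thalamus and habenula, 3 fell and 1 rose. Their summed level spread widely in WT, from 18.9 to 67.6 RPKM, and ran from 14.6 to 22.0 in R6/1. Pou4f1 of that list had a lowest WT value of 0 RPKM, and no marker of the other lists was at 0 in any library. With the mean of the inhibitory neuron markers as a covariate, 0 of the 6 receptor calls remained and over all genes 130 were higher and 190 lower, against 3586 and 3394 without it. The log2 fold changes in that fit were -1.74 for Htr1b, -0.69 for Htr2a, -0.50 for Htr4, -0.20 for Htr1a, -0.21 for Htr6 and 0.63 for Htr5a, so that each kept its direction, and those of Htr1b and Htr5a were larger than without the covariate. That mean ran from 4.42 to 4.67 in WT and from 3.85 to 4.16 in R6/1 on the log2 scale, so it and genotype cannot be told apart. The part of the other lists in the receptor differences was not tested.

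The genes whose values were most like each member's over the 18 libraries, after the genotype means were removed, were picked as the 3 with the highest Pearson r among all tested genes, a choice that by itself favours high values. For Htr2c these were Zfp185 (r = 0.907), Mlf1 (0.889) and Fzd7 (0.887), and for Htr3a Cyb5d2 and Coro2b (0.871 each) and Spock1 (0.863). For Htr2a they were Brap (0.794), Abr (0.758) and Trim32 (0.753), for Htr5a Plcl2 (0.839), Mapk9 (0.816) and Ttc9 (0.795), and for Htr1b Fabp3 (0.837), Cited4 (0.830) and Cacng3 (0.825). Susd6 led for Htr4 (0.859), Xrcc2 for Htr1a (0.856), Mir874 for Htr7 (0.864) and Prss36 for Htr6 (0.762). No receptor was among the leading genes of another, which does not mean that the receptors varied apart. Between tested members, r ran from -0.555 (Htr1b with Htr4) to 0.716 (Htr2c with Htr3a).

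The position of the receptor genes against the lamin B1 domains was read from 1 list per genotype, so it has no replicate spread. Lamina domains are usually poor in active genes. In WT, 3 of the 10 members had their start in a domain, Htr1a, Htr1b and Htr2c, and in R6/1, 2 of 10, Htr1a and Htr1b. Of all 20332 genes with a position, 4066 started in a WT domain and 3199 (15.7%) in an R6/1 domain, and of those that were tested for expression, 13.0% and 7.99%. The whole gene body gave the same placing as the start for all 10.

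Htr2c lay inside a WT domain on chromosome X from 139416001 to 144226000 (4.81 Mb), 0.829 Mb from its nearer border. The R6/1 list had no domain there, and its nearest one ended 6.61 Mb from the gene start. The Htr2c level did not pass the genotype test, as given above. Of the 12 tested genes that started in that WT domain, 2 rose (Alg13 and Lrch2) and 3 fell (Chrdl1, Lhfpl1 and Trpc5). Over all tested genes 24.8% were called higher and 23.5% lower, so these counts do not set the domain apart.

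Htr1b lay 1.16 Mb from the border of a 13.95 Mb WT domain on chromosome 9 (80364001 to 94313000). In R6/1 the domain around it kept that border but ended at 82732000, so it was 2.37 Mb long. Htr1b fell, while among the 45 tested genes that started in the WT domain 18 rose and 7 fell, with a median log2 fold change of 0.11, beside 24.8% and 23.5% of all tested genes. Htr1a lay 1.19 Mb from the border of a 2.44 Mb WT domain (chromosome 13, 105043001 to 107485000) and only 0.155 Mb from the border of the 1.59 Mb R6/1 domain (106079001 to 107670000). Of the 6 tested genes in that WT domain, Htr1a, Adamts6 and Rgs7bp fell and Cwc27 and Rnf180 rose. Over all tested genes 48.3% were called in either direction.

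Htr1f, outside the set, was likewise in a WT domain and outside the R6/1 list, 0.199 Mb from its nearest domain. The other 7 members lay outside both lists, from 1.84 Mb (Htr4) to 8.78 Mb (Htr5a) from the nearest WT domain. Htr2a, with the clearest fall, was 5.25 Mb from the nearest WT domain and 5.21 Mb from the nearest R6/1 domain, and for Htr6 and Htr7 the nearest domain also started or ended at nearly the same place in both genotypes. Of the 6 receptors that differed between genotypes, 2 were in a domain of both lists and 4 in none. The member whose domain was absent in R6/1 did not pass the genotype test. With 1 list per genotype, a link between domains and receptor levels was not tested.

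**Figure D4:**
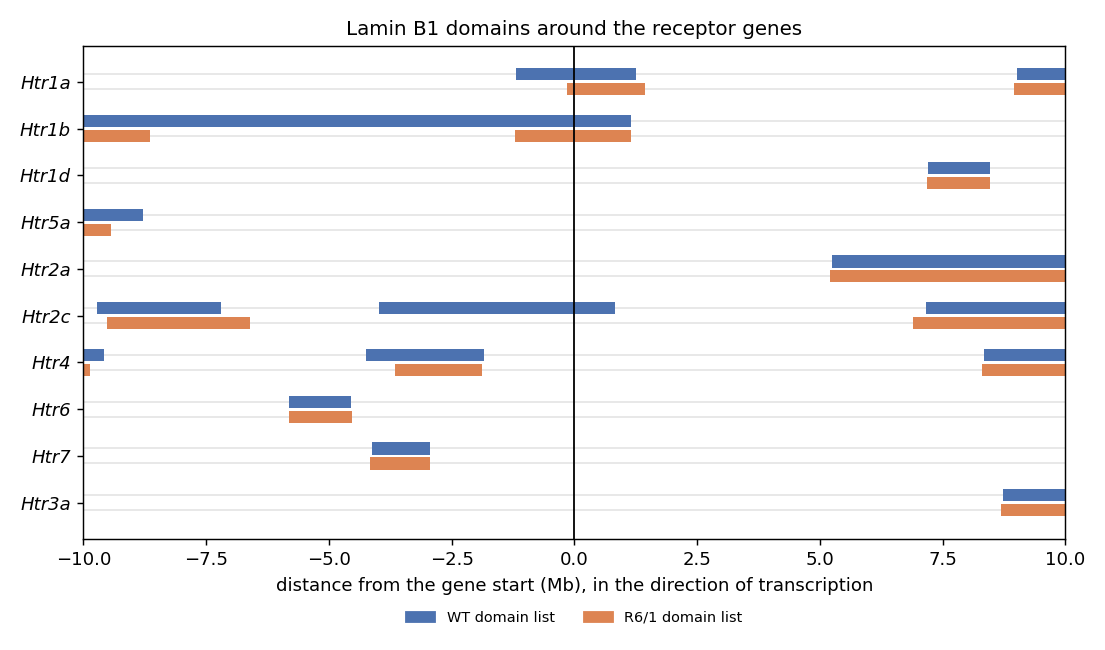
Lamin B1 domains within 10 Mb of the start of each receptor gene, drawn by distance in Mb in the direction of transcription, with the WT list in blue and the R6/1 list in orange; the vertical line is the gene start. Htr1a and Htr1b have a domain of both lists at the start, Htr2c has one of the WT list only, and the other 7 have none.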

How the data were processed

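RNA-seq of 9 WT and 9 R6/1 hippocampus samples was analysed, grouped by the labels. A stranded mRNA kit was used, per the labels' protocols, and TopHat, DESeq2 and build mm9 are named in the submitters' processing notes. The authors deposited RPKM, together with a table of their comparison that holds a mean normalized signal (a count over size factors), a log2 fold change, its test score and p-value per gene. The lamin B1 domain lists carry 1 score per domain from the authors' caller, named EDD in the file names, which was not used. The counter, annotation and versions are not given in the sources used here. Multiplied by mean normalized count over mean RPKM, between 99.75% and 99.82% of the low RPKM values were whole reads within a tolerance of 0.05, which gave the reads per library. A count of 0 allows up to 3 reads by counting error alone.

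Each gene was tested with limma 3.58.1 (R 4.3.3, lmFit, eBayes with trend) on log2(RPKM + 0.5), two-sided, for genes whose mean reached 0.5 RPKM, with Benjamini-Hochberg adjustment. The test was also run on simulated data, but far fewer genes were changed there than were called here. That run therefore does not cover a setting like that of these data. Named pathway genes are the up to 4 called per list with the largest change, of which 1 is not reported here, and other genes are named where a sentence needs their value. Members and lists were chosen with earlier results of these data known. Positions are from GENCODE vM1 on NCBIM37 (mm9), and upstream sequences from RefSeq, which matched 8 of 10 members. Alternatives were other pseudocounts, filters, scalings, weights, covariates, voom, the replicate number as a block, the authors' deposited table and leaving out each library. ATAC-seq was not analysed here, and a planned comparison of protein sequences was not run.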

Additional observations from a re-analysis of the deposited data

How the results depend on the processing

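Of the 9 tested receptors, 5 were lower and 1 higher in R6/1 in every fit that left out 1 of the 18 libraries, and with either pseudocount, no filter, median centring, quantile normalization, no trend, library weights, the choroid plexus covariate, voom and the authors' deposited table. A filter at a mean of 2 RPKM removed Htr1b and Htr6 from the test and so left 3 lower. Scaling to own totals of reads left 4 lower, without Htr6, and moved the split over all genes from 3586 higher and 3394 lower to 5110 and 2526. The inhibitory neuron covariate left 0 lower and 0 higher, with Htr2a at -0.69 (limma adjusted p 0.334) and Htr5a at 0.63 (0.160), and turned Htr3a to 0.72 and Htr1f to 0.23. Htr5b had a log2 fold change of -0.25 with that covariate, 0.0036 with quantile normalization, 0.0171 with own totals, and -0.0889 to 0.0231 with 1 library left out. With 1 library left out, the limma adjusted p of Htr6 ranged from 0.00498 to 0.0478. Replicate numbers showed no clear pairing of the libraries, which does not show that there is none. Of 9 same-numbered pairs, 3 had a correlation of deviations above 0.1 (range -0.0533 to 0.237), and 4 of 18 libraries correlated best with their own number. With the replicate block 5 members were lower and 1 higher, as without it. Depth limits Htr1b, Htr6 and Htr1d most, with a median of 8, 30 and 3 reads in R6/1.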
